A study of Oryctolagus cuniculus with 16 samples.

Results

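APOD, CP, STEAP2, EFEMP1 and C2orf40 are 5 genes, of 13788 gene symbols in the count table, whose change with flow in the media differed between the basilar artery (BA) and the basilar terminus (BT), the point at which the BA divides. They were chosen from the medial libraries, on the difference between the BT and the BA in the change with ligation, so every medial difference of these genes below, and every difference between the layers, which sets the intima against those same medial values, is a description and carries no test. The intima was not used to choose them, and comparisons within it are given with their tests. Female New Zealand white rabbits had both common carotid arteries ligated, which raises flow through the basilar system, or had sham surgery, and tissue was taken after 24 h. The sham rabbits were rabbits 3 and 4 and the ligated rabbits were rabbits 5 and 6, so that each combination of location, layer and surgery held 2 libraries, 1 from each rabbit. Intima and media were cut apart by laser microdissection from sections pooled within a rabbit, which gave 16 RNA-seq libraries. Counts on named genes were 5211886 to 17686105 in the intimal libraries and 2154863 to 11219236 in the medial libraries. Levels are CPM, counts scaled by TMM to a common library size, and fold changes are on the log2 scale with the standard error (SE) of the fit.

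The genes fall into 4 roles. APOD encodes apolipoprotein D, a secreted lipocalin that carries small lipids. CP encodes ceruloplasmin, a copper-bearing ferroxidase that is also an acute-phase protein of plasma, and STEAP2 encodes a membrane metalloreductase of iron and copper, so that both act on the redox state of metals as they cross the membrane. EFEMP1 encodes fibulin-3, a glycoprotein of the extracellular matrix related to the fibulins of elastic fibres. C2orf40, also named ECRG4, encodes the secreted precursor of augurin, a peptide best known from epithelia including the choroid plexus. In the wall of a muscular artery the media is made mainly of vascular smooth muscle cells (VSMC), the intima of endothelium on the internal elastic lamina, and fibroblasts lie in the adventitia outside the media and in the leptomeninges around cerebral arteries.

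The labelled layers matched their defining markers. In the intima against the media, 8 of 11 endothelial markers were higher and 8 of 10 VSMC markers were lower (edgeR, q-value below 0.05), among 785 of 10077 genes called, or 7.79%. PECAM1, an adhesion molecule of endothelium, was 3.77 higher on the log2 scale in the intima (SE 0.58, q = 0.00214). DES, the muscle intermediate filament desmin, was lower there, with a log2 fold change of -2.21 (SE 0.33, q = 0.00197). GFAP, the astrocyte filament, was at 0 in 11 libraries and no higher than 2.11 CPM in any.

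Some libraries stood apart before any comparison was made. In the intimal libraries of rabbit 3 the 14 leptomeningeal and adventitial fibroblast markers summed to 21231 CPM at the BT and 14515 CPM at the BA, against 1407 to 8215 CPM in the other 6 intimal libraries. The erythrocyte markers summed to 129820 CPM in the BT intima and 91937 CPM in the BA intima of rabbit 4, mostly HBB2, a beta globin, and to 8.17 CPM in the BA intima of rabbit 3. In the BT intima of ligated rabbit 5, 4 of the 5 genes and DCN, which encodes the fibroblast proteoglycan decorin, were at 0. A count of 0 in that library allows up to 0.259 CPM, for counting error only. TTR, a choroid plexus marker, was at 1672 CPM in the BA media of sham rabbit 4 and at 0 to 100 CPM in the other 15 libraries. The choroid plexus and ependymal markers as a list summed to 1779 CPM there, to 953 CPM in the BT intima of rabbit 3 and to at most 88.9 CPM in the other 14 libraries. Macrophage markers summed to 1125 and 527 CPM in the BT and BA intima of rabbit 3, against 70.5 to 203 CPM in the other 6 intimal libraries. The BT intima of rabbit 3, which held the most EFEMP1 of any library and the most C2orf40 of any intimal library, thus stood apart for fibroblast, macrophage and choroid plexus markers. Fewer cells of a type and less RNA per cell cannot be told apart in tissue strips such as these.

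In the sham media all 5 genes were higher at the BA than at the BT in both rabbits, and after ligation the locations came close to each other or the order turned. APOD was at 12291 and 9923 CPM in the sham BA media of rabbits 3 and 4, and at 928 and 877 CPM in the ligated BA media of rabbits 5 and 6. In the BT media it was at 1597 and 1217 CPM after sham surgery and at 589 and 1085 CPM after ligation. The sham BA media stood alone, with every other medial library of APOD at or below 1597 CPM. Ligated and sham libraries did not overlap at either location. With 2 libraries a group such separation comes easily, here and below, and its share over all genes is not given. The log2 change with ligation was -3.61 (SE 0.25) at the BA and -0.74 (SE 0.34) at the BT. The ratio of BA to BT media was 7.70 and 8.15 in the sham rabbits and 1.58 and 0.808 in the ligated rabbits.

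CP was lower at the BA and higher at the BT in the ligated media. Its level was 2020 and 1858 CPM in the sham BA media and 870 and 544 CPM in the ligated BA media. At the BT it was 492 and 437 CPM after sham surgery and 1146 and 993 CPM after ligation. Ligated and sham libraries were apart at both locations and in opposite directions, so that the location with the higher level changed. The log2 change was -1.44 (SE 0.31) at the BA and 1.21 (SE 0.29) at the BT. STEAP2, the other metal-handling gene, differed with ligation at the BT alone. It was at 33.4 and 25.0 CPM in the sham BT media and at 165 and 238 CPM in the ligated BT media, a log2 change of 2.80 (SE 0.41). At the BA the sham libraries were at 104 and 70.3 CPM and the ligated libraries at 73.3 and 82.3 CPM. Those BA values overlapped, and the log2 change was -0.15 (SE 0.42). The ratio of BA to BT media was 3.12 and 2.81 for STEAP2 in the sham rabbits and 0.445 and 0.346 in the ligated rabbits, and for CP it was 4.11 and 4.25 against 0.759 and 0.548.

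EFEMP1 was at 229 and 241 CPM in the sham BA media and at 48.5 and 54.5 CPM in the ligated BA media. In the BT media it was at 6.39 and 37.1 CPM after sham surgery and at 58.9 and 67.8 CPM after ligation. The BA groups were tight and far apart, whereas the sham BT libraries differed by 5.80 times. The log2 change was -2.17 (SE 0.36) at the BA and 1.53 (SE 0.70) at the BT. The BT value became 3.32 without rabbit 4, which left the sham library at 6.39 CPM. Without rabbit 3 the sham library left was the one at 37.1 CPM, closer to the ligated ones. C2orf40 was at 578 and 128 CPM in the sham BA media and at 32.7 and 27.8 CPM in the ligated BA media. At the BT it was at 86.9 and 46.1 CPM after sham surgery and at 59.2 and 104 CPM after ligation. Its BA groups did not overlap, its BT groups did, and the 2 sham BA libraries differed from each other more than those of the other 4 genes. The log2 change of C2orf40 was -3.54 (SE 0.68) at the BA and 0.31 (SE 0.47) at the BT, and the BA value was -2.06 (SE 0.38) without rabbit 3.

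**Figure D1:**
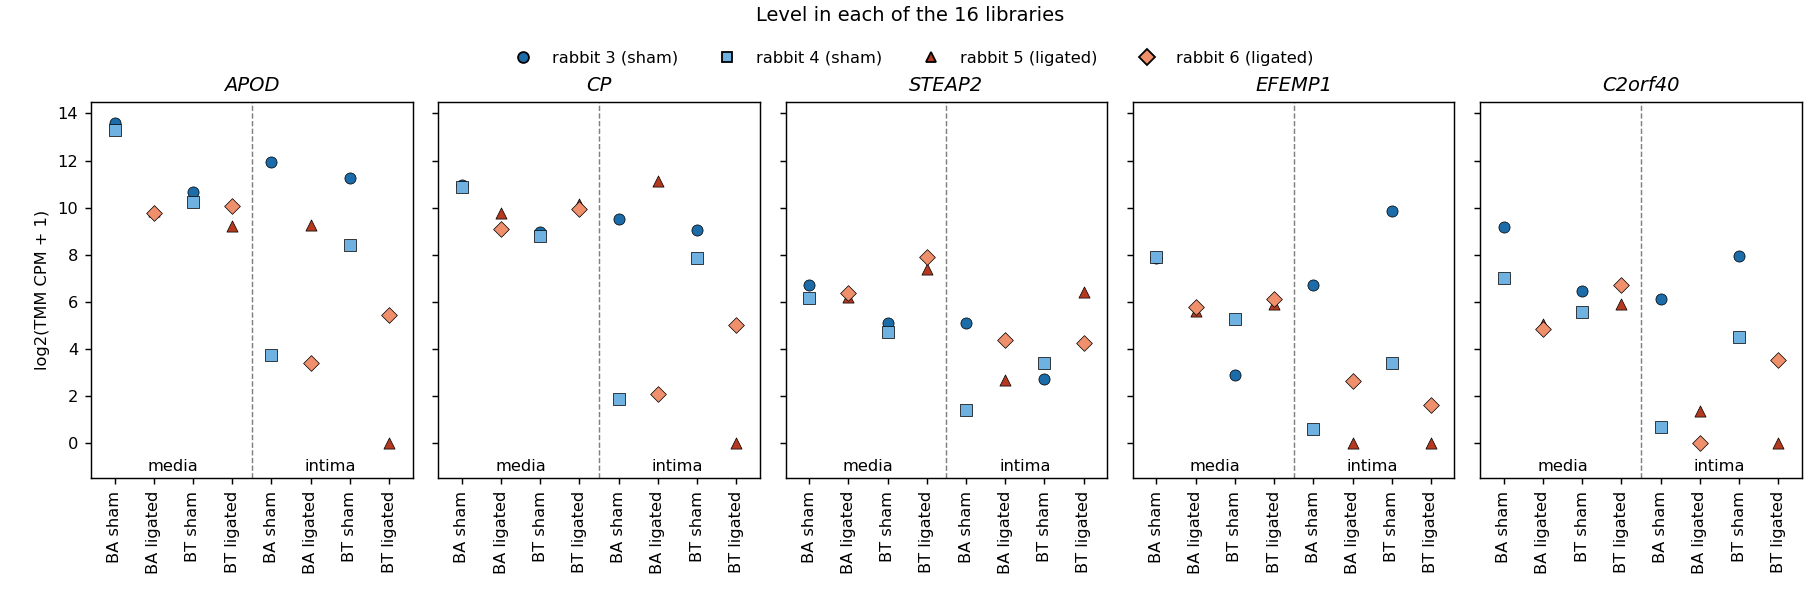
Level of each gene in the 16 libraries as log2(TMM CPM + 1), with media to the left of the dashed line and intima to the right, and 1 point per rabbit. The medial points of a group lie close together for most genes, with APOD in the sham BA media at 12291 and 9923 CPM, whereas the intimal points of a group lie far apart, down to 0 in the BT intima of rabbit 5.

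The response at the BT less that at the BA, on the log2 scale, was positive for all 5 genes in the media, which is what they were chosen on. It was 2.86 (SE 0.42) for APOD, 2.65 (SE 0.41) for CP, 2.94 (SE 0.58) for STEAP2, 3.69 (SE 0.81) for EFEMP1 and 3.84 (SE 0.81) for C2orf40. Ordered by p over 9368 genes they stood at ranks 1, 2, 5, 8 and 7. In this fit 2 genes were called, or 0.0213% of those tested, and both, APOD and CP, were among those chosen, from which nothing is read. The genes between them in that order were CIART at 9.29, TM4SF18 at -8.69 and CRYAB at -2.10, named after their values were seen. With rabbit as a block the differences were 2.80, 2.69, 2.91, 4.10 and 3.49 for APOD, CP, STEAP2, EFEMP1 and C2orf40. In that fit, which takes account of the BA and BT coming from 1 rabbit, 47 genes were called, or 0.502%. All 5 were among them, from which again nothing is read, because they were chosen on this difference in the same libraries. In APOD and C2orf40 the difference came mainly from a lower level at the ligated BA, in STEAP2 from a higher level at the ligated BT, and in CP and EFEMP1 from both.

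**Figure D2:**
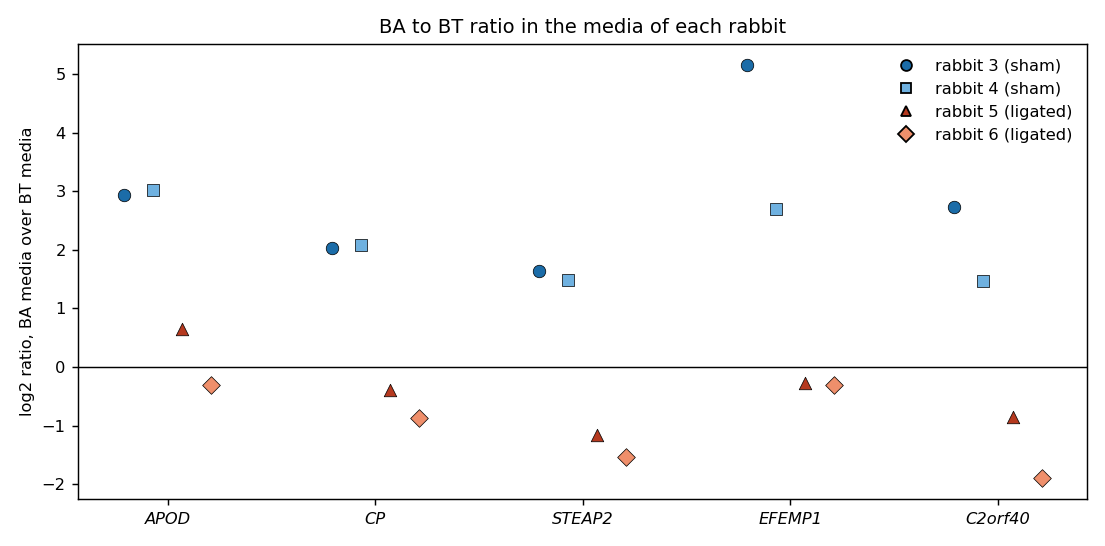
Log2 ratio of BA media to BT media within each rabbit, 1 point per rabbit, with the line at 0 marking equal levels. The sham rabbits lie above 0 for all 5 genes, up to a ratio of 35.9 for EFEMP1 in rabbit 3, and the ligated rabbits lie below 0 except for APOD in rabbit 5, at a ratio of 1.58.

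DCN was at 6989 and 4376 CPM in the sham BA media, 1918 and 1515 CPM in the ligated BA media, 1648 and 2012 CPM in the sham BT media, and 1229 and 2427 CPM in the ligated BT media. Like APOD, DCN was thus highest in the sham BA media, and it fell with ligation at the BA by 1.72 on the log2 scale (SE 0.30, q = 0.0481) while its log2 change at the BT was 0.01 (SE 0.35, q = 0.993). No gene was called in the BA media when any 1 rabbit was left out, so this call and those of OGN and FABP5 at the BA below were each lost then. The 14 fibroblast markers summed to 29462 and 25070 CPM in the sham BA media and 22558 and 29595 CPM in the sham BT media, and to 8306 and 8784 CPM and then 8965 and 10349 CPM in the ligated BA and BT media. Gene by gene, 10 of the 14 had a positive difference BT minus BA, with a median of 0.67 against 0.16 over all genes tested and none past the threshold. The 4 at an unadjusted p below 0.05 were split in direction, with DCN at 1.72 (SE 0.46) and LUM, the proteoglycan lumican, at 1.81 (SE 0.60), but OGN at -0.92 (SE 0.36) and SLC6A13, a transporter of the leptomeninges, at -8.13 (SE 3.37). OGN, which encodes osteoglycin, fell at both locations, by 1.84 (q = 0.0219) at the BA and by 2.75 (q = 0.00116) at the BT. With ligation, 5 of the 14 fibroblast markers were called lower and 1 higher in the BA media, beside 0.807% of all genes called. In the BT media 3 were called lower and 0 higher, beside 2.35%. The marker called higher at the BA was ALDH1A2, at 2.47 (SE 0.37, q = 0.0311). The limit given above for calls at the BA holds for these too. The macrophage markers were highest, among the medial groups, in the sham BA, as APOD, CP, EFEMP1 and C2orf40 were. The 12 of them summed to 347 and 268 CPM in the sham BA media, 173 and 79.7 CPM in the ligated BA media, 94.1 and 84.2 CPM in the sham BT media and 115 and 182 CPM in the ligated BT media. TYROBP, an adaptor of myeloid receptors, was at 139 and 71.5 CPM in the sham BA media and at 7.34 to 51.8 CPM in the other 6 medial libraries. CD14, a defining marker of that list, was at 8.67 and 27.8 CPM in the sham BA media and at 2.36 to 19.3 CPM in the other medial libraries, which overlap. CD14 was also higher in the intima than in the media, by 2.83 on the log2 scale (SE 0.41, q = 0.0017). In that comparison 8 of 11 macrophage markers had a lower estimate in the intima. The difference BT minus BA was positive for 9 of 9 macrophage markers tested, with a median of 1.95 against 0.16 over all genes tested, 4 at an unadjusted p below 0.05 and none past the threshold. VSMC markers went mostly the other way, with 7 of 10 negative, a median of -0.66 and none past the threshold. At an unadjusted p below 0.05, 4 were negative, among them ACTA2, smooth muscle actin, at -0.78 (SE 0.30), and 1 was positive, SMTN, which encodes smoothelin, at 1.18 (SE 0.45). The part of fibroblast, macrophage, smooth muscle or choroid plexus RNA in the medial values of APOD, CP, STEAP2, EFEMP1 and C2orf40 was not tested.

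In the intima no gene passed the threshold with ligation at either location, and where both rabbits of a group had counts they differed by up to 695 times, for CP in the ligated BA intima. The share called was 0% of 8974 genes at the BA and 0% of 9273 genes at the BT in edgeR. The paper reported intimal genes past the same q-value threshold at both locations, with another expression filter and edgeR release. Why the counts differ was not tested. At an unadjusted p below 0.05 there were 534 and 1079 genes, and DESeq2 called 122 and 613. APOD was at 3936 and 12.3 CPM in the sham BA intima and at 607 and 9.58 CPM in the ligated BA intima. In the BT intima it was at 2430 and 343 CPM after sham surgery and at 0 and 42.2 CPM after ligation. The BA groups overlapped and the BT groups did not. The log2 change was -2.69 at the BA (95% interval -7.22 to 1.85, q = 0.882) and -6.06 at the BT (-11.6 to -0.56, q = 0.392). Where a library was at 0 or close to it, the fitted fold change depends on the small count that edgeR adds.

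CP was at 732 and 2.62 CPM in the sham BA intima and at 2261 and 3.25 CPM in the ligated BA intima, and at 522, 229, 0 and 31.0 CPM in the BT intima of rabbits 3, 4, 5 and 6. The 2261 CPM in rabbit 5 was the highest of all 16 libraries, in the same rabbit whose BT intima had none. The log2 change of CP was 1.62 at the BA (95% interval -3.31 to 6.54, q = 0.974) and -4.62 at the BT (-9.28 to 0.04, q = 0.431). STEAP2 was the one gene of the 5 that was higher in both ligated BT intimal libraries. It was at 5.55 and 9.66 CPM there after sham surgery and at 84.9 and 18.0 CPM after ligation, a log2 change of 2.78 (95% interval 0.64 to 4.92, q = 0.337). In the BA intima STEAP2 was at 32.8 and 1.64 CPM after sham surgery and at 5.43 and 19.7 CPM after ligation, and these overlapped (log2 change -0.48, 95% interval -3.38 to 2.41, q = 0.995).

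EFEMP1 was at 933 and 9.66 CPM in the sham BT intima and at 0 and 2.06 CPM in the ligated BT intima. The single value of 933 CPM, in rabbit 3, was the highest of any library. The log2 change was -8.83 (95% interval -14.9 to -2.74, q = 0.305). In the BA intima EFEMP1 was at 105 and 0.523 CPM after sham surgery and at 0 and 5.13 CPM after ligation (log2 change -4.44, q = 0.856). C2orf40 was at 245 and 21.8 CPM in the sham BT intima and at 0 and 10.7 CPM in the ligated BT intima, with a log2 change of -4.66 (q = 0.438). At the BA it was at 68.1 and 0.598 CPM after sham surgery and at 1.6 and 0 CPM after ligation (log2 change -5.34, q = 0.795). The BA groups overlapped for both of these genes. DCN was again among the genes that moved with them, at 2832 and 861 CPM in the sham BT intima and at 0 and 32.4 CPM in the ligated BT intima. All 14 fibroblast markers had a negative log2 change with ligation in the BT intima, with a median of -4.44 against -0.13 over all genes tested, none passing the threshold. Of 11 macrophage markers 9 had a negative change, with a median of -8.34. At an unadjusted p below 0.05, 6 were lower and 1, LYVE1, was higher, at 5.08 (SE 1.19). TYROBP was at 290 and 34.0 CPM after sham surgery and at 0 and 0.0823 CPM after ligation. Both choroid plexus markers tested had a negative change too, with a median of -9.52. Endothelial markers went mostly the other way, with 8 of 11 positive and a median of 0.61. At an unadjusted p below 0.05, 3 were positive and KDR was negative, at -5.31. In the BA intima the change was negative for 9 of 14 fibroblast, 8 of 9 macrophage and 8 of 10 VSMC markers. Their medians were -1.90, -1.82 and -0.76 against -0.10 over all genes tested. At an unadjusted p below 0.05, 5, 1 and 3 were negative and 1 fibroblast marker was positive. No marker of these lists passed at either location, and their part in the intimal values was not tested. Leaving out 1 sham rabbit, with the other assumed to vary like the ligated ones, changed calls, among 126 genes called at the BA (1.42%) and 116 at the BT (1.24%) without rabbit 4, and 81 at the BA (0.918%) without rabbit 3. Without rabbit 4 the changes of APOD (-3.68), EFEMP1 (-5.44) and C2orf40 (-6.31) in the BA intima and of EFEMP1 (-9.84) in the BT intima passed the threshold. Without rabbit 3 the BA values of APOD and CP were 4.67 and 8.78 and passed, and those of STEAP2 and EFEMP1 were 2.94 and 2.27 and did not, so that the direction of APOD, STEAP2 and EFEMP1 turned. Testing every gene with a count, with no filter on low counts, left the fold changes of the 5 genes as they were but narrowed their errors. In that fit APOD (q = 0.00108), EFEMP1 (q = 0.000333) and C2orf40 (q = 0.000895) passed in the BA intima, where 1.16% of genes were called. In the BT intima, where 3.12% were called, APOD (q = 0.0099), CP (q = 0.0251), EFEMP1 (q = 0.000831) and C2orf40 (q = 0.0345) passed. STEAP2 passed at neither location.

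**Figure D3:**
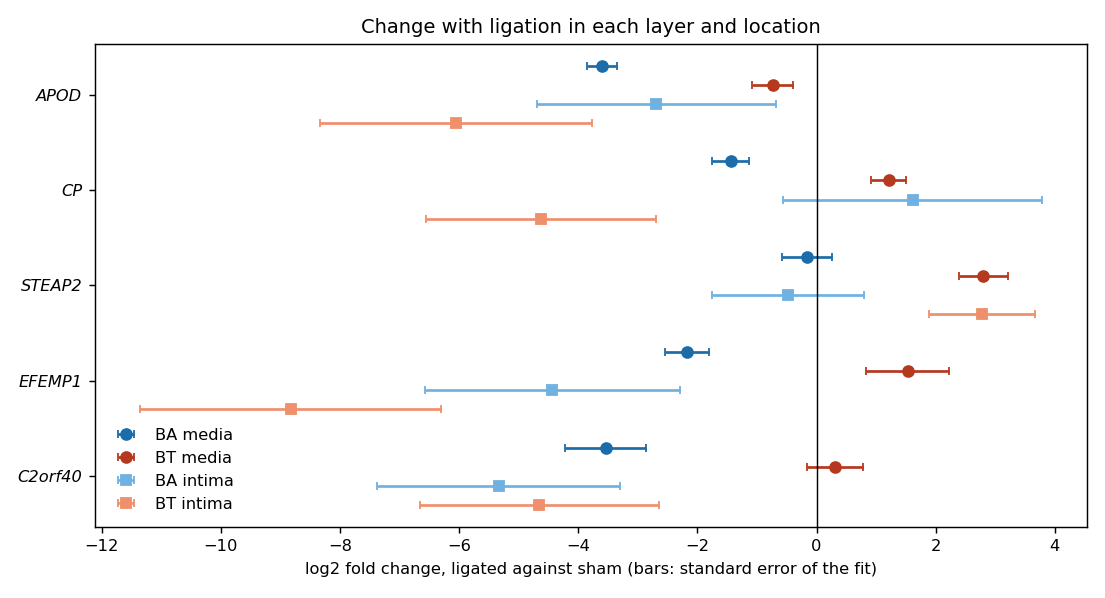
Log2 fold change with ligation for each gene in the 2 layers and 2 locations, as points with bars of 1 standard error of the fit. Medial points (circles) separate BA from BT with short bars, from -3.61 for APOD at the BA to 2.80 for STEAP2 at the BT, and intimal points (squares) have bars of 0.89 to 2.52.

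The location-dependent change that chose the genes in the media was not resolved in the intima. There the response at the BT less that at the BA was, on the log2 scale, -3.40 for APOD (95% interval -10.9 to 4.09), -6.27 for CP (-14.5 to 1.99), 3.23 for STEAP2 (-0.77 to 7.22), -4.40 for EFEMP1 (-11.9 to 3.13) and 0.62 for C2orf40 (-5.92 to 7.15). Each had a q-value of 1.00, and edgeR called 0% of 9641 genes, with 301 at an unadjusted p below 0.05 and 47 called by DESeq2. The point estimate was positive, as in the media, for STEAP2 and C2orf40, and negative for APOD, CP and EFEMP1. These directions were not stable for 4 of the 5. With rabbit as a block the value of C2orf40 was -2.27. Leaving out 1 rabbit gave values from -9.26 to 8.01 for C2orf40, -0.52 to 5.16 for STEAP2, -15.4 to 2.62 for APOD and -17.8 to 3.19 for CP. With no filter on low counts 1.05% of genes were called, and APOD (q = 0.000386), CP (q = 3.72e-14) and EFEMP1 (q = 1.95e-05) were among them. These calls depended on dropping the filter. CP was at 2261 and 3.25 CPM in the 2 ligated BA intimal libraries, a spread that so small a q-value does not reflect. Of the fibroblast markers 11 of 14 had a negative value, with a median of -2.49 against -0.05 over all genes tested. At an unadjusted p below 0.05, 3 were negative and 1, LUM, was positive, at 9.99 (SE 4.11). Of the macrophage markers 8 of 11 were negative, with a median of -4.10, and at an unadjusted p below 0.05 there were 4 negative and 1 positive. The part of these markers in the values of the 5 genes was not tested. The difference between the layers in these values was not tested.

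Within the sham intima, 0% of 9261 genes differed between the BT and the BA in the fit without a block (198 at an unadjusted p below 0.05, 25 called by DESeq2). With rabbit as a block 10 genes did, or 0.108%, and EFEMP1 was 1 of them. EFEMP1 was higher at the BT than at the BA of the same sham rabbit by 8.85 times in rabbit 3 and by 18.5 times in rabbit 4. The log2 difference was 3.54 (SE 0.44, q = 0.0283) with the block and 3.15 (SE 2.40, q = 1.00) without it. That order of locations was the opposite of the sham media, where EFEMP1 was higher at the BA by 35.9 and 6.50 times. The difference between the layers was not tested. C2orf40 too was higher at the BT in the intima of both sham rabbits, by 3.59 and 36.5 times (log2 difference with the block 3.23, SE 0.75, q = 0.297). DCN was higher at the BT in the same libraries, at 2832 against 1824 CPM in rabbit 3 and 861 against 8.15 CPM in rabbit 4, and 11 of 14 fibroblast markers had a positive log2 difference, with a median of 1.04 against 0.01 over all genes tested. All 10 VSMC markers had a negative one, with a median of -1.37 and 4 at an unadjusted p below 0.05. Macrophage markers were positive in 9 of 11, with a median of 1.13 and none at an unadjusted p below 0.05. Choroid plexus markers were positive in 2 of 3, with a median of 4.15. Brain parenchymal markers were positive in 2 of 3, SNAP25 at 8.07 (SE 2.96) and SLC1A3 at 9.32 (SE 3.6), both at an unadjusted p below 0.05. The 11 brain markers summed to only 19.3 and 4.83 CPM in the sham BT intima and 10.9 and 0.673 CPM in the sham BA intima, so these estimates rest on low counts. Over the 8 intimal libraries EFEMP1 had a Pearson r of 0.872 with the choroid plexus list, 0.826 with the macrophage list, 0.791 with the brain list and 0.782 with the fibroblast list, a description over libraries that share rabbits and depth. No marker of these lists passed the threshold without the block, and their part in the EFEMP1 difference was not tested. APOD, CP and STEAP2 had the higher level at the BA in rabbit 3 and at the BT in rabbit 4. Within the ligated intima 0% of 8649 genes differed between the locations (260 at an unadjusted p below 0.05, 47 called by DESeq2), and the 5 genes had log2 differences of -6.23 for CP to 2.66 for C2orf40, each with a q-value of 0.998. With no filter on low counts 0.387% were called, and APOD (q = 0.0475) and CP (q = 0.00194) were among them. In the same libraries 10 of 14 fibroblast markers had a lower estimate at the BT, with a median of -0.90 against -0.02 over all genes tested. At an unadjusted p below 0.05, 3 were lower, DCN among them at -5.96 (SE 2.45, q = 0.998), and 1 was higher, ALDH1A1 at 1.49 (SE 0.59). Of 8 macrophage markers 5 were lower at the BT and 3 higher, with a median of -5.37. At an unadjusted p below 0.05, 3 of them were lower and LYVE1 was higher, at 6.53 (SE 1.29), and the part of either list was not tested.

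Averaged over locations and surgeries, all 5 genes had a lower estimate in the intima, set against the medial values that chose them. STEAP2 was higher in the media in 8 of 8 pairs of layers from the same rabbit and location, with a log2 difference, intima minus media, of -2.62 (SE 0.46). Its media ranged from 25.0 to 238 CPM with a median of 77.8 and its intima from 1.64 to 84.9 CPM with a median of 13.8. C2orf40 was higher in the media in 7 of 8 pairs, with a log2 difference of -3.94 (SE 1.08). The difference was -3.80 (SE 1.38) for APOD, higher in the media in 7 pairs, -3.66 (SE 1.65) for CP, in 6 pairs, and -4.10 (SE 1.52) for EFEMP1, in 7 pairs. Leaving out each rabbit in turn moved it from -2.44 to -2.82 for STEAP2 and from -1.98 to -5.76 for CP, the narrowest and the widest range of the 5.

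Fibroblast markers were lower in the intima too. Of the 14, 13 had a negative log2 difference, with a median of -1.65 against 0.06 over all genes tested, and 6 were called lower, beside 3.62% of all genes. These included LUM at -5.69 (SE 1.07, q = 0.00603), DPT, the matrix protein dermatopontin, at -6.00 (SE 1.53, q = 0.0304) and the collagen gene COL3A1 at -1.73 (SE 0.20, q = 0.000551), while DCN was at -4.07 (SE 1.6, q = 0.159). Their part in the layer differences of APOD, CP, STEAP2, EFEMP1 and C2orf40 was not tested. The pairs in which the intima was the higher layer were few and mostly from 1 rabbit. In the BT of sham rabbit 3 the intima held more APOD (2430 against 1597 CPM), more CP (522 against 492 CPM), more C2orf40 (245 against 86.9 CPM) and more EFEMP1 (933 against 6.39 CPM). The remaining pair was the BA of ligated rabbit 5, with CP at 2261 CPM in the intima and 870 CPM in the media.

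**Figure D4:**
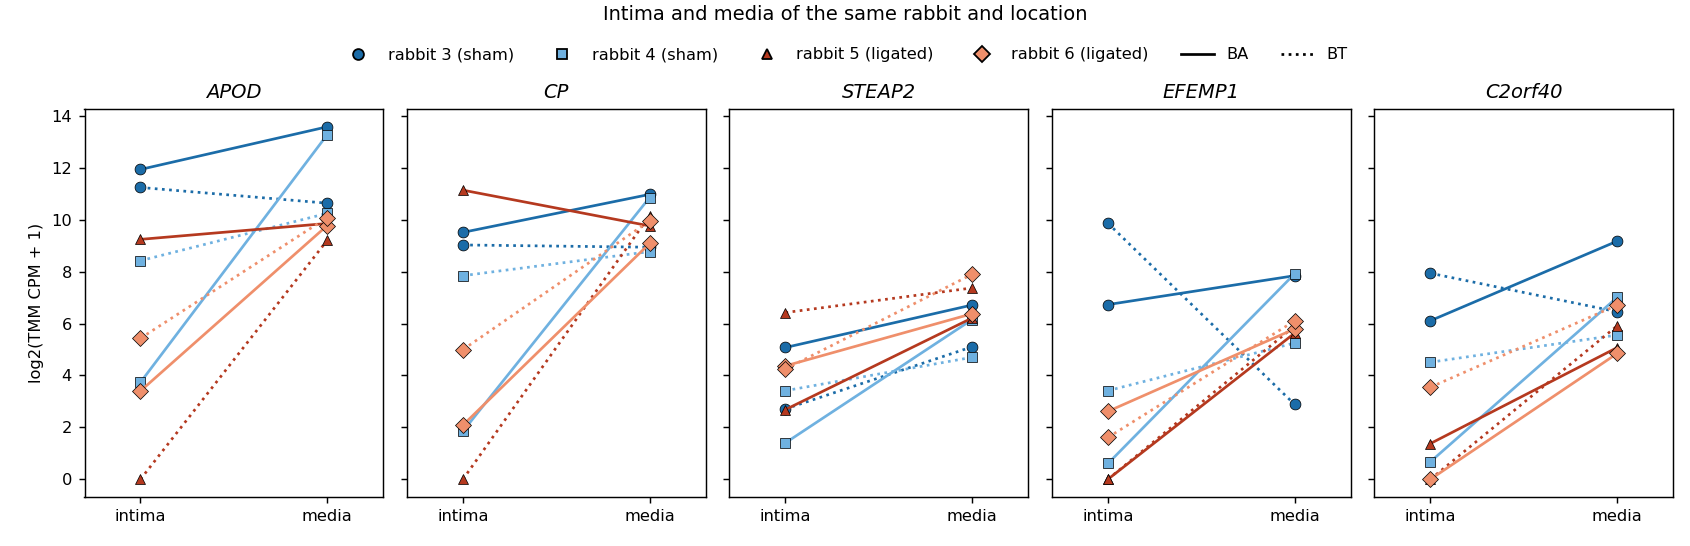
Intima and media of the same rabbit and location joined by lines, as log2(TMM CPM + 1), with solid lines for the BA and dotted lines for the BT. STEAP2 rises from intima to media along all 8 lines, and the dotted line of rabbit 3 falls for APOD, CP, EFEMP1 and C2orf40.

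The order of the 8 group means differed between the genes. The sham BA media was the highest for APOD (11107 ± 1675 CPM, SD, n = 2), CP (1939 ± 114 CPM) and C2orf40 (353 ± 318 CPM). For APOD it was apart from the next group, and for CP and C2orf40 it overlapped the next. For STEAP2 the ligated BT media was the highest, at 201 ± 51.7 CPM, with no overlap with the sham BA media at 87.2 ± 23.9 CPM. For EFEMP1 the sham BT intima had the highest mean, 471 ± 653 CPM, but it rested on rabbit 3 and overlapped the sham BA media at 235 ± 8.47 CPM. The ligated BT intima had the lowest mean of APOD, CP and EFEMP1, the ligated BA intima that of C2orf40, and the sham BT intima that of STEAP2, each overlapping the group above it.

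Across all 16 libraries APOD and CP followed each other (Pearson r = 0.939 on log2(CPM + 1), n = 16), and C2orf40 followed APOD (r = 0.888) and EFEMP1 (r = 0.868). STEAP2 stood apart, with r of 0.253 to 0.409 against the other 4. These are descriptions over libraries that share rabbits, layers and depth. Of 8702 genes, DCN had the pattern most like APOD (r = 0.971), followed by CYP1B1 and LAMA2, and the pattern most like CP (r = 0.975), followed by LAMA2 and SFRP4. The nearest to EFEMP1 were MFAP5 (r = 0.915), a microfibril protein, VCAN and PKIB, and the nearest to C2orf40 were CTSH (r = 0.948), PDGFRA, a receptor of fibroblasts, and ISLR. STEAP2 was most like HSD11B1 (r = 0.916), the enzyme that regenerates cortisol, then FBN1, the microfibril protein fibrillin-1, and CTHRC1. Over the 8 medial libraries alone the nearest genes were others, LGALS3 for APOD (r = 0.982), RCBTB2 for CP (0.967), ARPC1B for STEAP2 (0.978), ALKBH6 for EFEMP1 (0.945) and BTN2A2 for C2orf40 (0.965). Within the media APOD and CP were less alike (r = 0.684, n = 8), and CP and EFEMP1 more so (r = 0.837).

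**Figure D5:**
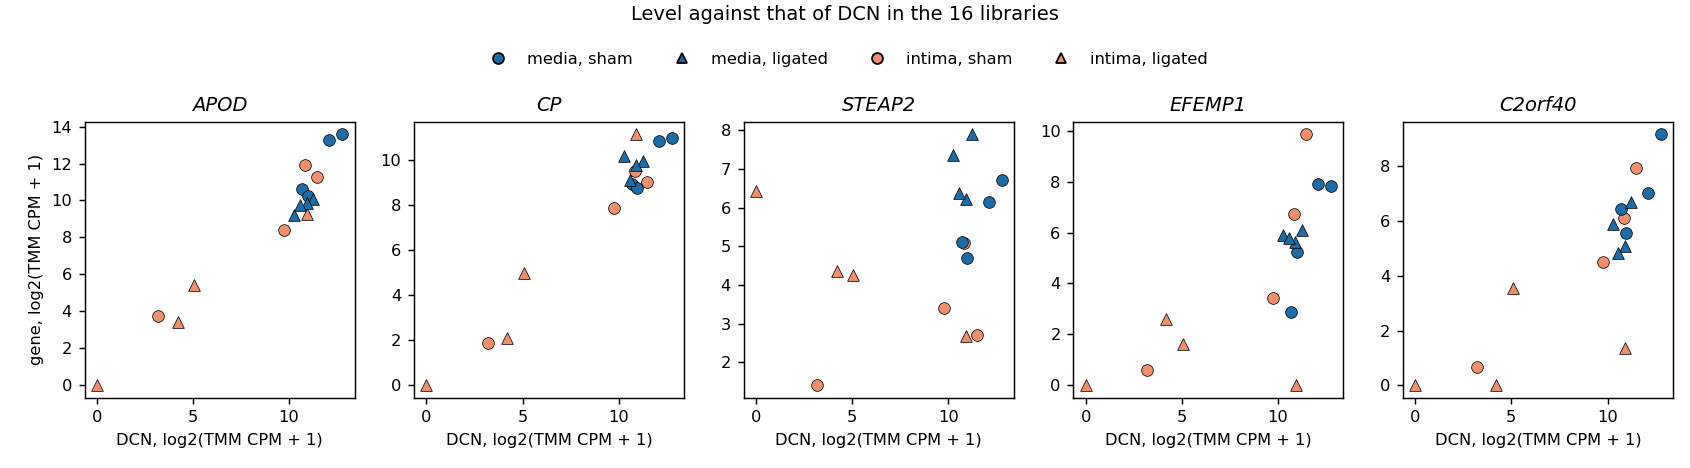
Level of each gene against that of DCN, both as log2(TMM CPM + 1), 1 point per library. APOD and CP lie along a single line with DCN over the 16 libraries (r = 0.971 and 0.975), while the BT intima of rabbit 5 has STEAP2 at 84.9 CPM with DCN at 0.

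Of the other genes of iron and copper handling, the pathway of CP and STEAP2, 0 of 28 tested passed with ligation in the BA media, beside 71 of all 8800 genes, or 0.807%, and 5 had an unadjusted p below 0.05. In the BT media 1 of 27 passed, beside 206 of 8783, or 2.35%, so that both counts were near the background. That gene was TFRC, the transferrin receptor, which rose by 1.66 (SE 0.33, q = 0.0263), from 241 and 149 CPM to 620 and 601 CPM. TFRC was also at 559 and 563 CPM in the ligated BA media against 239 and 177 CPM (log2 change 1.44, q = 0.0894), and the difference BT minus BA was 0.21 (SE 0.45, q = 0.991). STEAP1 and STEAP4, of the same family as STEAP2, had differences BT minus BA of 2.16 (SE 0.55, q = 0.496) and 1.22 (SE 0.53, q = 0.754) in the media. FTL, the ferritin light chain, had 0.91 (SE 0.34, q = 0.723). HEPH, the membrane-bound relative of ceruloplasmin, had no count in any of the 16 libraries. The median difference of the 29 tested genes of this list was 0.29, beside 0.16 over all genes. Between layers, 4 of 32 were higher in the intima, namely TF, SLC31A2, HMOX2 and SLC31A1, and 2 were lower, beside 4.17% and 3.62% of all genes. STEAP4 was lower, with a log2 difference of -5.02 (SE 1.01, q = 0.00889), and so was TFRC at -0.82 (SE 0.14, q = 0.00434).

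Of the other lipocalins and lipid carriers, the family of APOD, FABP5, a fatty acid binding protein, rose in the media at both locations. The log2 change was 3.98 (SE 0.48, q = 0.0176) at the BA and 4.77 (SE 0.56, q = 0.00131) at the BT. FABP5 was the 1 gene called of these 12 at the BA and 11 at the BT, beside 0.807% and 2.35% of all genes. None of the 20 other fibulins and elastic fibre genes tested, the group of EFEMP1, passed with ligation in the media of either location. Their medians were -0.37 at the BA and -0.05 at the BT against -0.15 and 0.03 over all genes. At an unadjusted p below 0.05 there were 9 and 4. Between the layers 3 of the 20 were lower in the intima, FBN1, LOXL2 and EMILIN1, and 2 were higher, HMCN1 and MFAP3, beside 3.62% and 4.17% of all genes. Among the other acute-phase genes, a group CP belongs to, 0 of 16 passed in the BA media and 2 of 15 in the BT. The shares over all genes were the same 0.807% and 2.35%. The 2 that passed were TIMP1, an inhibitor of metalloproteinases, which rose by 3.77 (SE 0.31, q = 0.000173), and the cytokine IL6, which rose by 6.58 (SE 1.01, q = 0.00676). In the BA media the log2 change was 6.27 (SE 1.3, q = 0.0749) for IL6 and 2.10 (SE 0.39, q = 0.0553) for TIMP1. The difference BT minus BA was 0.26 (SE 1.70, q = 1.00) for IL6 and 1.66 (SE 0.45, q = 0.547) for TIMP1. No gene of these 4 lists, which leave out the 5 genes themselves, passed in the difference between locations in either layer.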

How the data were processed

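RNA of laser-microdissected intima and media was amplified with SMART-Seq v4, made into Nextera libraries and sequenced as single reads. The authors aligned the reads untrimmed to OryCun2.0 with STAR and counted unique reads over exons with featureCounts 1.6.2, whose strand setting cannot part a gene from an antisense partner in libraries that do not mark strand. The deposited table holds unnormalized read counts of 13788 symbols, 22 of them replaced by dates. An entry without a symbol, 13.8% to 18.7% of the counts of a library, was left out. All 16 columns were used.

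Tests were edgeR 4.0.16 quasi-likelihood F tests (older form) in R 4.3.3 with TMM scaling, on genes with a mean above 1 CPM in at least 1 group, with a q-value threshold of 0.05 (Benjamini-Hochberg over all genes tested). Ligation was tested within a layer and location on 2 against 2 libraries, its difference between locations as an interaction over the 8 libraries of a layer, and intima against media over 16 libraries with the 8 rabbit-location pairs as a block. Standard errors were taken from the F statistic. For the 5 genes the medial and the layer fits give values only, because the medial libraries chose them; a planned sign-flip test between layers is not reported for this reason. DESeq2 1.42.0 was an alternative, beside other scalings, filters, fits and leaving out each rabbit. The BA and BT of a rabbit pair because they come from the same animal. Deviations of the 2 locations correlated at r = 0.409 and 0.224 in sham intima and media and at 0.0776 and 0.0697 in the ligated ones. The chi-square per degree of freedom between replicates was 22.5 to 456, so the spread within a group exceeded counting error. Differences of rabbit, dissection and amplification cannot be told apart in it. Limits for a count of 0 (3 counts, 95%) cover counting error only. The code was tested on simulated data.

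The members and the gene lists were chosen with earlier results of these data known. Genes named beside them were the 3 with the highest correlation to each member, at most the 4 list genes with the smallest p in a comparison together with all list genes that passed the threshold, and defining cell markers. Sequences and coordinates were not used here.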

Additional observations from a re-analysis of the deposited data

Results flagged for a closer look

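CP and EFEMP1 moved in opposite directions between locations or layers with ligation. The ligated and sham libraries were apart in each tissue named. With 2 libraries a group this comes easily, and the share of all genes so separated is not given, so nothing is read from it. In the media the log2 change of CP was -1.44 at the BA and 1.21 at the BT, and that of EFEMP1 was -2.17 at the BA and 1.53 at the BT. These are the differences on which the genes were chosen, so they are not tested here. At the BT the log2 change of CP was -4.62 in the intima against 1.21 in the media, and that of EFEMP1 was -8.83 in the intima against 1.53 in the media. The difference between the layers was not tested. With 2 libraries in each group, no group was large enough to look for a single library far from the rest.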

How the results depend on the processing

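Having 2 rabbits in each group limits every comparison, and the intimal levels of these genes depend on single libraries. The call counts moved with the method, and the cause was not tested. With DESeq2 they were 122 (BA intima), 613 (BT intima), 508 (BA media), 594 (BT media), 47 and 26 (difference between locations in intima and media), 25 and 47 (BT against BA in sham and ligated intima) and 1669 (layers). Without a filter on low counts they were 123, 346, 507, 557, 121 and 41 in the same order, and 39 for BT against BA in the ligated intima. One fit over 16 libraries gave 10, 60, 38 and 19 for ligation and 0 for the medial difference between locations. That difference also had 0 calls with RLE scaling, filterByExpr and the version 4 quasi-likelihood fit. For ligation filterByExpr gave 41 in the BA media, and version 4 gave 3 (BA intima) and 7 (BA media).

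With rabbit as a replicate block, 47 genes were called in the medial difference between locations and 10 in the sham intima. The block turned the intimal difference of C2orf40 to -2.27 and the sham intimal log2 difference of APOD, BT against BA, to 2.03. Neither passed. Among the tested values of the 5 genes the block changed the call of EFEMP1 in the sham intima, given above, and no other.

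Leaving out each rabbit in turn gave 0 to 126 calls (BA intima), 0 to 116 (BT intima), 0 each time (BA media) and 38 to 645 (BT media) with ligation, 0 to 30 in the medial difference between locations and 231 to 835 between layers. The ligation change in the BA intima ran from -7.72 to 4.67 for APOD, -6.85 to 8.78 for CP, -1.67 to 2.94 for STEAP2 and -12.5 to 2.27 for EFEMP1. The intimal difference between locations ran from -15.4 to 2.62 for APOD, -17.8 to 3.19 for CP, -0.52 to 5.16 for STEAP2 and -9.26 to 8.01 for C2orf40. BT against BA within 1 surgery leaves 1 against 1 and was not run. No medial value of the 5 genes that chose them changed sign in the difference between locations under any of these alternatives. Nothing is read from this, because the genes were chosen on that difference in the same libraries.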
